A study of Homo sapiens with 54 samples.

Results

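The 10 circadian clock genes PER1, PER2, PER3, CRY1, CRY2, NR1D1, NR1D2, DBP, CIART and TEF were followed through every library. They were chosen by name, as 10 of the 60676 genes quantified. RNA-seq was performed on hMSN-like cells, which are neuronal cultures differentiated toward the medium spiny neuron of the striatum from the human embryonic stem cell line H9 (WA09). There were 53 libraries in 18 groups. In the dose experiments dopamine was given at 1 mM or at 1 µM, either as a single exposure (Acute) or as an exposure repeated over 5 days (Chronic), with RNA taken either 1 h or 24 h later, and each dose had its own PBS controls (3 libraries per group). In the time course, 1 mM dopamine was given for 2, 3, 4 or 5 days (3 libraries per group, 2 at 5 Day) and compared 1 h after the last dose with an ascorbic acid control (AA Ctrl, 3 libraries). In the agonist experiment the D1-like receptor agonist SKF82958 or the D2-like receptor agonist quinpirole, each at 50 µM, was compared with Water (3 libraries per group). These comparisons ask how the response to a first dopamine exposure differs from that to a repeated exposure, at which dose, and through which receptor class.

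The molecular clock is a transcriptional feedback loop. CLOCK and ARNTL (BMAL1) bind E-boxes in or near the PER, CRY, NR1D and DBP genes. The PER and CRY proteins repress CLOCK and ARNTL, and the NR1D proteins (REV-ERBs) repress ARNTL transcription. PER1 and PER2 are in addition inducible by cyclic AMP and calcium signaling, which dopamine receptors regulate, and clock gene expression in the striatum is known to respond to dopamine.

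The culture and dosing design limits what the levels can show. The hour of collection was not given, so a change in level and a shift in phase cannot be told apart. Acute and Chronic groups of the dose experiments were dosed on different days of differentiation, and the medium was replaced in part for an acute dose and entirely for repeated doses. The PBS group of each dose served both, and its day was not stated. It cannot match both days, so day of differentiation and dopamine cannot be told apart in some comparisons with PBS. Dopamine was dissolved in ascorbic acid, so in the comparisons with PBS the solvent and dopamine cannot be told apart. Nothing stated that the replicates came from separate differentiations, so p-values measure the spread between these libraries, which may be technical. TPM values are exon reads scaled to the exon length listed for the gene and to the library total. Of the striatal markers, PPP1R1B (DARPP-32) had a median of 14.0 TPM, DRD2 of 3.68 TPM and DRD1 of 1.64 TPM over the 53 libraries. The progenitor marker SOX2 had a median of 504 TPM and TOP2A, made in dividing cells, of 223 TPM. The cultures therefore held dividing cells beside neurons, and fewer cells of a type and less RNA per cell cannot be told apart in these bulk libraries.

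The libraries held 137051 to 27702963 exon reads (median 11458465). Quinpirole replicate 1 was the shallow library, and 96.7% of its gene reads were intronic. Some libraries stood apart from their group. In 1 mM Acute 24 h replicate 1 all 10 clock genes were higher than in the other replicates, by 1.21-fold (PER3) to 4.84-fold (PER1) with a median of 2.63-fold, while the median gene was 1.17-fold higher (12866 genes with a mean over 5 TPM). FOS, an immediate early gene, was at 67.3 TPM in that library and at 15.7 and 9.72 TPM in the other replicates. In the 1 µM experiment the second replicates of PBS, Acute 1 h and Chronic 1 h stood apart together. Of the mean of the other replicates, TEF was at 0.302, 0.214 and 0.377 and NR1D2 at 1.07, 1.13 and 0.972. The median clock gene was at 0.582, 0.569 and 0.727, and the median of all genes with a mean over 5 TPM at 0.702, 0.767 and 0.758. Introns took 31.2% of gene reads in Acute 1 h replicate 2, against 23.8% and 20.2% in the other Acute 1 h libraries. Results that rest on these libraries are given with and without them.

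The promoters of 4 members are shown because they differ in the elements through which CLOCK and ARNTL or DBP and TEF act. Each is the stretch before a RefSeq transcription start (GRCh38.p14), written 5′ to 3′ on the gene's strand and ended where a GENCODE exon begins. Capitals mark an E-box (CACGTG), an E′-box (CACGTT) or a D-box (TTATGTAA or TTACGTAA), searched on both strands.
PER1 (chr17:8152436-8152654, minus strand): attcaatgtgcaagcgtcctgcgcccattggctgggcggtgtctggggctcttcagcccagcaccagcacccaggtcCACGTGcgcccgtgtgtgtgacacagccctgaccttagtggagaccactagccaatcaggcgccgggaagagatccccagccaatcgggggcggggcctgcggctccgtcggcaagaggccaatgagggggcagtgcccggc
CIART (chr1:150282304-150282542, plus strand): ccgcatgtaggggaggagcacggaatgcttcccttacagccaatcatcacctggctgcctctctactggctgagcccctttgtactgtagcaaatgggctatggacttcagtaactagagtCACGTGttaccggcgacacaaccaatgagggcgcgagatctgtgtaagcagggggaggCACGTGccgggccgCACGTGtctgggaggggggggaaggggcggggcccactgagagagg
NR1D2 (chr3:23945871-23946120, plus strand): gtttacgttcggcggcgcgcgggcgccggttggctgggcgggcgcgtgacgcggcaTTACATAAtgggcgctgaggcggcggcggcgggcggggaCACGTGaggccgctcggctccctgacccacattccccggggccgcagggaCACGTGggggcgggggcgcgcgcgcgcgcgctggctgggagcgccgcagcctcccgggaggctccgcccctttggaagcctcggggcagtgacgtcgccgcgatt
NR1D1 (chr17:40100590-40100839, minus strand): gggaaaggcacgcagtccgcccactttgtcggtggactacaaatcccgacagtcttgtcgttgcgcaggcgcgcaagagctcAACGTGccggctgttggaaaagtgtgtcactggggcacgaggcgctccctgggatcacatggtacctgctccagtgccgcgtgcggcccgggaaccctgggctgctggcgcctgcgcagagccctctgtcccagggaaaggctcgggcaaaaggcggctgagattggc
A match on the other strand reads as its reverse complement, AACGTG for the E′-box of NR1D1 and TTACATAA for the D-box of NR1D2. The PER1 stretch held 1 E-box and the CIART stretch 3. The NR1D2 stretch lies at the second of its starts and held 2 E-boxes and 1 D-box, while the NR1D1 stretch held 1 E′-box. Over the 250 bases before each start, an E-box was present in 6.34% of the 35116 promoter windows, an E′-box in 4.55% and a D-box in 0.940%. All 10 members had a window, 14 in all, of which 5 held an E-box. The cyclic AMP response element TGACGTCA, found in 1.65% of all windows, was in none of the 14. A match or its absence describes these letters only.

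Levels are compared between genes as TPM, which is per exon length as listed for each gene. The listed length was 6485 bases for DBP and 2630 for NR1D1. It can differ from the length of the RNA made, so the order of the genes depends on it. Over the 12 control libraries PER1 had the highest median (35.7 TPM, range 19.8 to 45.3) and CRY1 the next (33.8 TPM, range 29.5 to 47.2). CRY2 followed at 27.3 TPM, NR1D2 at 23.5 TPM and NR1D1 at 16.3 TPM. TEF (13.7 TPM), CIART (13.4 TPM), PER3 (10.1 TPM), PER2 (8.54 TPM) and DBP (6.95 TPM) were lower. The ranges of neighbors in this order overlapped. NR1D2 ran from 32.6 to 38.6 TPM in the 6 PBS libraries and from 11.01 to 14.4 TPM in the AA Ctrl and Water libraries. DBP ran from 8.31 to 18.9 TPM in PBS and from 2.61 to 5.59 TPM in the other controls, and for both genes the control types did not overlap. Experiment, vehicle and time of collection cannot be told apart here.

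A single exposure to 1 µM dopamine was followed at 1 h by lower NR1D1, DBP and CRY1 and by higher PER2 and PER3. In edgeR 5 of the 10 clock genes passed an adjusted p of 0.05, beside 5.77% of the 16541 genes tested. NR1D1, a repressor of ARNTL, overlaps THRA on the opposite strand, and the strand setting of the counting was not stated, so reads of the overlap cannot be told apart. It was at 30.1, 33.0 and 26.8 TPM in PBS and at 13.3, 8.57 and 14.0 TPM after Acute 1 h. All 3 treated libraries lay below all controls, with a log2 fold change of -1.37 ± 0.21 (SE, n = 3 per group, edgeR adjusted p = 0.0017). DBP, a D-box activator and clock output gene, was at 18.9, 9.03 and 16.5 TPM in PBS and at 8.15, 2.23 and 8.40 TPM after Acute 1 h. The groups did not overlap, although both were lowest in replicate 2, and the log2 fold change was -1.25 ± 0.34 (edgeR adjusted p = 0.0465). CRY1, a core repressor, was at 47.2, 34.4 and 35.6 TPM in PBS and at 27.0, 21.8 and 28.3 TPM after Acute 1 h. It fell by 0.59 on the log2 scale (SE 0.14, edgeR adjusted p = 0.0234) with no overlap.

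The PER genes moved the other way at that time. PER3 was at 10.7, 8.71 and 12.3 TPM in PBS and at 19.1, 16.6 and 19.1 TPM after 1 µM Acute 1 h. The groups did not overlap and the log2 fold change was 0.81 ± 0.19 (edgeR adjusted p = 0.0215). PER2 was at 9.85, 5.42 and 8.85 TPM in PBS and at 15.7, 9.84 and 13.4 TPM after Acute 1 h. The second treated library and the first control were nearly level, so these groups overlapped, with a log2 fold change of 0.72 ± 0.17 (edgeR adjusted p = 0.020). PER1 was at 45.3, 19.8 and 40.4 TPM in PBS and at 60.6, 20.98 and 63.4 TPM after Acute 1 h, with both second replicates low. Its log2 fold change of 0.47 ± 0.26 did not pass (edgeR adjusted p = 0.345), and it was 0.58 ± 0.13 with the 3 second replicates left out (edgeR adjusted p = 0.0085), where 7 of 10 members passed beside 11.3% of genes. The other genes gave log2 fold changes of -0.64 for CRY2, -0.52 for TEF, -0.16 for CIART and 0.05 for NR1D2, none past the threshold.

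**Figure D1:**
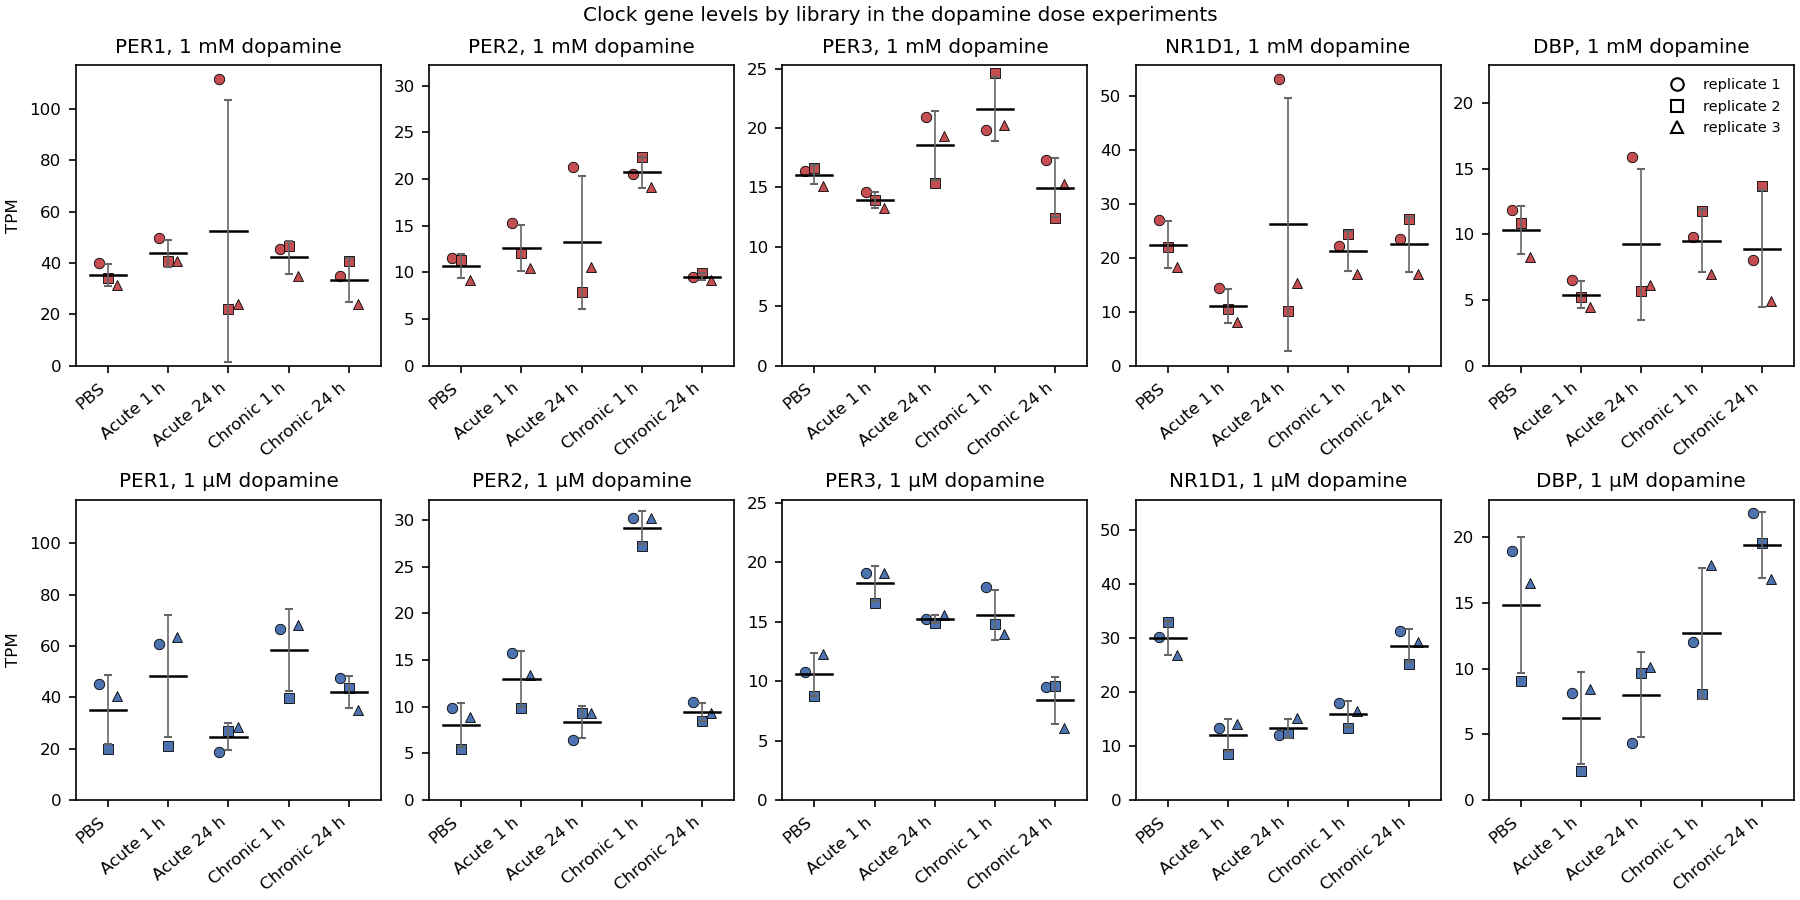
TPM of PER1, PER2, PER3, NR1D1 and DBP in each library of the 1 mM (upper row) and 1 µM (lower row) dopamine experiments, by group, with each symbol a replicate, the bar the mean and the whiskers the SD. The mean of PER2 is highest after Chronic 1 h at both doses, NR1D1 is low after Acute 1 h at both doses, and replicate 1 of 1 mM Acute 24 h lies far above its group in PER1 and NR1D1.

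NR1D1 kept its call in all 15 fits that each left out 1 library, and the other 4 lost theirs in some. PER2 lost it without Acute 1 h replicate 1 (edgeR adjusted p = 0.0851), PBS replicate 2 (0.0674) or PBS replicate 3 (0.0622), and PER3 without Acute 1 h replicate 1 (0.0516) or PBS replicate 1 (0.0911). CRY1 lost it without Acute 1 h replicate 3 (0.0516), PBS replicate 1 (0.0815) or PBS replicate 2 (0.0649). DBP lost it in 12 of the 15 fits, with edgeR adjusted p up to 0.140 (without PBS replicate 1). In a fit of PBS, Acute 1 h and Chronic 1 h with the replicate number as a block, the same 5 genes and CRY2 (log2 fold change -0.67, edgeR adjusted p = 0.0154) passed, beside 10.5% of 15907 genes. A fit of only PBS and Acute 1 h called 0 of the 10 members (edgeR adjusted p from 0.132 for NR1D1 to 0.326 for PER2 among the 5), and it called 52 genes where the fit of all groups called 954. With intron reads counted too (total gene reads), PER3 was at 0.19 (edgeR adjusted p = 0.366), PER2 at 0.56 (0.116) and DBP at -1.32 (0.0983). Summed oligodendrocyte lineage markers were at 2.78 to 7.39 TPM after Acute 1 h, 0.871 to 2.62 TPM in PBS and 0.769 to 2.77 TPM after Chronic 1 h, while the other 6 marker lists overlapped between Acute 1 h and PBS, and their part in the result was not tested. The median log2 fold change of the 10 members was -0.34, beside 0.02 over all genes tested. Of the 5 genes called, NR1D1 and DBP also met the study's fold threshold (a change of at least 1 on the log2 scale in either direction, with at least 1 TPM on average in a group), as did 2.41% of all genes. In the other 1 µM comparisons 1 member met it, NR1D1 at Acute 24 h (beside 1.18% of genes) and PER2 at Chronic 1 h (1.11%), from Acute to Chronic 1 h (0.496%) and from Chronic 1 h to 24 h (0.895%), and 0 members at Chronic 24 h against PBS (0.0%) and from Acute 1 h to 24 h (0.345%).

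At 24 h after the single 1 µM exposure NR1D1 and CRY1 were below PBS. NR1D1 was at 12.03, 12.5 and 15.2 TPM, under every control, with a log2 fold change of -1.27 ± 0.21 (edgeR adjusted p = 0.0052), and kept its call in all 15 fits with 1 library left out. CRY1 was at 20.3, 27.1 and 31.8 TPM, with a log2 fold change of -0.63 ± 0.14 (edgeR adjusted p = 0.0258). It lost its call without any of the 3 Acute 24 h libraries (edgeR adjusted p from 0.0570 to 0.112) or without PBS replicate 1 (0.0889) or 2 (0.0874). It also lost its call in a fit of only PBS and Acute 24 h (edgeR adjusted p = 0.0808). These were 2 of 10 members, beside 3.31% of all genes. PER2 was at 6.41, 9.27 and 9.37 TPM, within the PBS range, and PER1 at 18.7, 26.7 and 28.4 TPM. Astrocyte markers summed to 77.7 to 90.7 TPM here and 63.5 to 70.7 TPM in PBS, and progenitor markers to 1807 to 1996 and 1554 to 1780 TPM. The intron share was 19.7% to 20.5% here and 22.3% to 23.6% in PBS, and the part of these measures was not tested. Without the 3 second replicates that stood apart, 6 of 10 members passed, all lower: NR1D1, CRY1, CRY2, DBP, TEF and PER1 (log2 fold change -0.70, edgeR adjusted p = 0.0016), beside 11.4% of all genes. No member differed between Acute 24 h and Acute 1 h past the threshold (0 of 10 in edgeR, 2 at an unadjusted p under 0.05, 2 in DESeq2), beside 0.592% of all genes. With those second replicates left out PER1 (-1.29) and PER2 (-0.75) were called there as lower at 24 h, beside 4.87% of genes.

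After repeated 1 µM exposure PER2 showed the largest fold change of any member in the comparisons with a control. It was at 30.2, 27.2 and 30.2 TPM after Chronic 1 h, above every other library of the 1 µM experiment, where the highest was 15.7 TPM. The log2 fold change against PBS was 1.94 ± 0.17 (edgeR adjusted p = 3.55e-05), and it kept its call in all 15 fits with 1 library left out (1.86 to 2.03). Exon reads of PER2 were 540, 429 and 702 after Chronic 1 h against 182, 112 and 151 in PBS. Its intron reads were 67, 66 and 162 after Chronic 1 h against 117, 61 and 74 in PBS, so the groups overlapped in intron reads and not in exon reads (raw counts, not scaled to depth). NR1D1 was at 18.0, 13.2 and 16.5 TPM, again below every PBS library, with a log2 fold change of -0.91 ± 0.21 (edgeR adjusted p = 0.0323). That call was lost with the replicate number as a block (edgeR adjusted p = 0.0565 in the fit of PBS, Acute 1 h and Chronic 1 h). It was also lost in 9 of the 15 fits with 1 library left out, with edgeR adjusted p up to 0.137. A fit of only PBS and Chronic 1 h lost it too (0.20), where PER2 stayed called (0.0110). These were 2 of 10 members, beside 2.58% of all genes, and the median of the members was 0.02, beside 0.00 over all genes. PER1 was at 66.7, 39.9 and 68.3 TPM, a log2 fold change of 0.80 ± 0.26 (edgeR adjusted p = 0.143), and with the block in the fit of all 1 µM groups it was at 0.81 (0.102), where PER2 was the only member called. A fit of only PBS, Acute 1 h and Chronic 1 h with the block was chosen after seeing the data. PER1 passed there (0.83 ± 0.16, edgeR adjusted p = 0.0128, beside 4.83% of genes). Without the 3 second replicates PER1 (0.73), PER2 (1.76) and NR1D1 (-0.65) were called, beside 7.2% of genes.

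Against Acute 1 h, PER2 after Chronic 1 h was higher by 1.22 ± 0.17 on the log2 scale (edgeR adjusted p = 0.0028), with no overlap and in all 15 fits with 1 library left out. In a fit of only these groups the difference was 1.21 (edgeR adjusted p = 0.310). It was the only member of 10 called, beside 1.2% of all genes, and also with the replicate block in the fit of all 1 µM groups. In the fit of only PBS, Acute 1 h and Chronic 1 h with the block, CRY2 (0.66), DBP (1.15) and TEF (1.08) were called as well, all higher after Chronic 1 h, beside 3.51% of genes. Without the 3 second replicates PER2 (1.08), CRY2 (0.69) and TEF (0.84) were called, beside 4.22%. DBP after Chronic 1 h was at 12.04, 8.06 and 17.9 TPM, which overlapped PBS. Its log2 fold change against PBS was -0.17 ± 0.33.

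At 24 h after the last of the repeated 1 µM exposures 0 of 10 members and 0 of 16541 genes passed in edgeR. At an unadjusted p under 0.05 there were 0 members and 608 genes, and DESeq2 called 0 members and 1 gene. PER2 was at 10.5, 8.45 and 9.36 TPM and NR1D1 at 31.2, 25.2 and 29.2 TPM, both overlapping PBS. From Chronic 1 h to Chronic 24 h PER2 fell by 1.72 on the log2 scale (SE 0.17, edgeR adjusted p = 8.9e-05). PER3 fell from 17.9, 14.8 and 14.0 TPM to 9.51, 9.57 and 6.08 TPM, by 0.99 on the log2 scale (SE 0.19, edgeR adjusted p = 0.0146), with no overlap. PER3 lost that call without Chronic 1 h replicate 1 (edgeR adjusted p = 0.0596) or 2 (0.0526), or Chronic 24 h replicate 1 (0.0501) or 3 (0.0619), and it was at -0.32 with intron reads counted too (0.274). These 2 of 10 stood beside 1.95% of all genes. Without the 3 second replicates PER1 (-0.64) was called as lower and NR1D1 (0.77) as higher too, beside 7.66%. Astrocyte markers summed to 69.5 to 72.1 TPM after 1 µM Chronic 24 h and 57.9 to 63.8 TPM after Chronic 1 h. Progenitor markers summed to 1665 to 1739 and 1529 to 1630 TPM, and mesenchymal markers to 51.9 to 58.3 and 31.0 to 49.6 TPM. The other marker lists overlapped, and the part of these cells in the result was not tested.

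**Figure D2:**
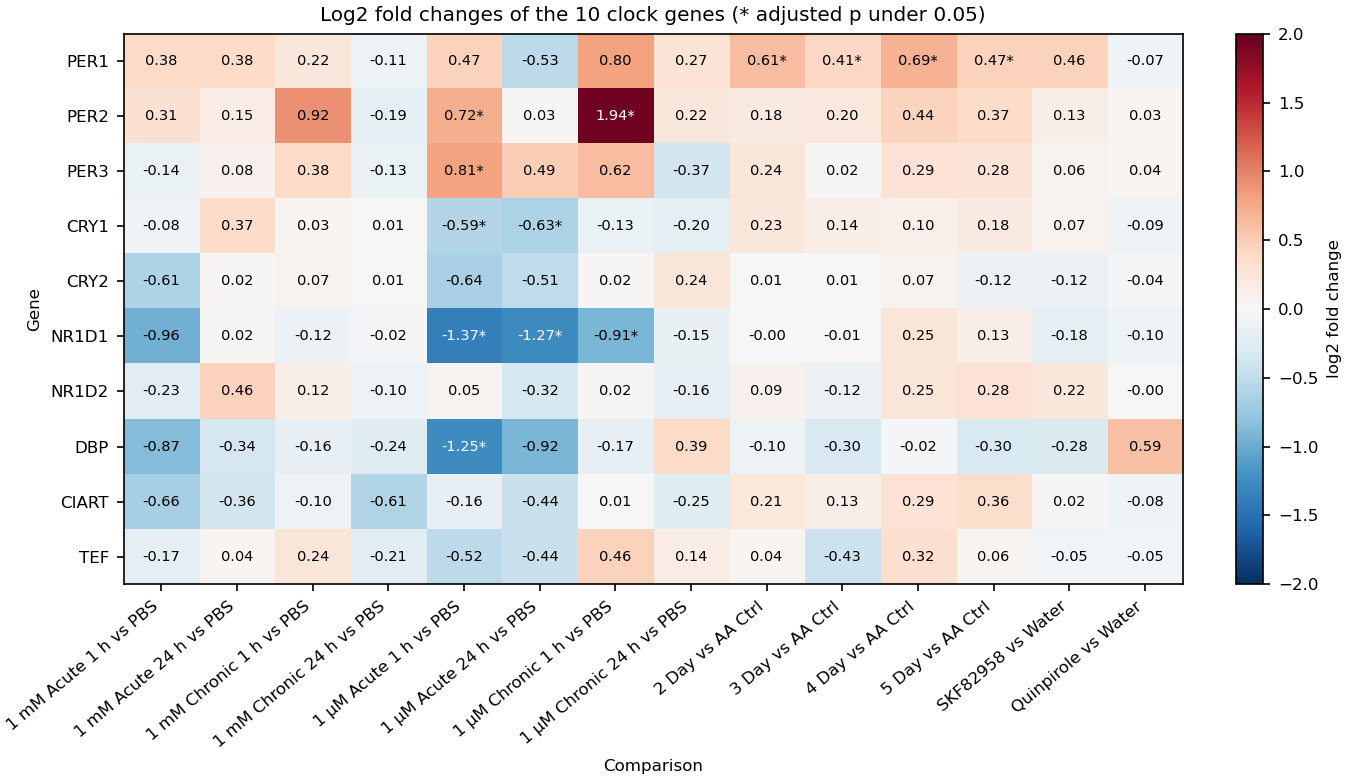
Log2 fold changes of the 10 clock genes (rows) in the 14 comparisons with a control (columns), by color and in numbers, with an asterisk where the edgeR adjusted p was under 0.05. PER2 at 1 µM Chronic 1 h (1.94) is the highest value and NR1D1 at 1 µM Acute 1 h (-1.37) the lowest, and PER1 is the only member with asterisks in the time course.

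At 1 mM, with all libraries in the fit, 0 of 10 clock genes passed in any of the 4 comparisons with PBS. Acute 1 h called 16.0% of 17804 genes, Acute 24 h 15.5%, Chronic 1 h 2.08% and Chronic 24 h 0.663%. The number of members at an unadjusted p under 0.05 was 3, 0, 2 and 0 in that order, and DESeq2 called 1 member, PER2, after Chronic 1 h. The study's fold threshold was met by 0 members at 1 mM, beside 4.1%, 3.7%, 0.82% and 0.298% of genes against PBS in the same order, 2.82% from Acute to Chronic 1 h, 1.02% from Acute 1 h to 24 h and 0.275% from Chronic 1 h to 24 h. The TPM of 8 of 10 members did not overlap between PBS and Acute 1 h, beside 53.5% of all genes tested. NR1D1 was at 26.9, 22.1 and 18.3 TPM in PBS and at 14.4, 10.6 and 8.15 TPM after Acute 1 h. CRY2, the second cryptochrome, was at 38.3, 37.5 and 29.3 TPM in PBS and at 22.8, 22.4 and 20.4 TPM after Acute 1 h. DBP was at 11.8, 10.9 and 8.31 TPM in PBS and at 6.53, 5.26 and 4.43 TPM after Acute 1 h. CIART (CHRONO), a repressor of CLOCK and ARNTL, was at 25.1, 18.7 and 14.6 TPM in PBS and at 11.2, 11.02 and 12.9 TPM after Acute 1 h.

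The fit without 1 mM Acute 24 h replicate 1, a library of neither group, called 5 of the 10 members after Acute 1 h, all lower, beside 39.8% of 18178 genes. NR1D1 changed by -0.97 ± 0.23, DBP by -0.88 ± 0.29, CIART by -0.68 ± 0.19, CRY2 by -0.63 ± 0.12 and NR1D2 by -0.25 ± 0.09 (log2, edgeR adjusted p from 0.000652 to 0.0377). These fold changes were close to those with all libraries (-0.96, -0.87, -0.66, -0.61 and -0.23), where the standard errors were larger (0.44, 0.38, 0.33, 0.25 and 0.28). Other measures also separated these groups. Summed TPM after Acute 1 h and in PBS was 105.0 to 111 and 114 to 150 for 4 astrocyte markers, 88.0 to 95.8 and 104 to 119 for 9 striatal markers, and 1315 to 1387 and 1205 to 1281 for 4 progenitor markers. It was 5.92 to 6.25 and 3.39 to 5.195 for 3 oligodendrocyte markers and 0.0879 to 0.495 and 0.762 to 0.911 for 2 pluripotency markers, while GABAergic and mesenchymal markers overlapped. Introns took 12.3% to 13.2% of gene reads after Acute 1 h and 19.5% to 21.8% in PBS, and the part of these measures in the result was not tested. PER1 was at 40.1, 34.2 and 31.6 TPM in PBS and at 49.8, 40.7 and 40.8 TPM after Acute 1 h, a log2 fold change of 0.38 ± 0.43 (edgeR adjusted p = 0.592) without overlap. A fit of only 1 mM PBS and Acute 1 h called 6 members, 1 higher and 5 lower, beside 7592 of 16694 genes.

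At 24 h after the single 1 mM exposure the sign of several members depended on that library. PER1 was at 112, 22.2 and 23.9 TPM and NR1D1 at 53.2, 10.1 and 15.3 TPM. With all 3 libraries the log2 fold changes against PBS were 0.38 for PER1, 0.02 for NR1D1 and 0.02 for CRY2. Without replicate 1 they were -0.67 (edgeR adjusted p = 0.0182), -0.87 (0.0231) and -0.46 (0.0189), and CIART was at -0.95 (0.00665). These 4 of 10 members stood beside 22.3% of 18178 genes. In the same fit PER1 (-1.03) and PER2 (-0.56) were lower at Acute 24 h than at Acute 1 h, beside 9.3% of genes, where the fit of all libraries called 0 members (3 at an unadjusted p under 0.05, 0 in DESeq2) beside 3.49%. At Chronic 24 h against PBS 0 of 10 were called without that library as well, beside 8.48% of genes. The 2 libraries left in the Acute 24 h group were assumed to vary like the other groups. Introns took 12.5% to 15.9% of gene reads in the 3 Acute 24 h libraries and 19.5% to 21.8% in PBS. Progenitor markers summed to 1331 to 1375 and 1205 to 1281 TPM, and pluripotency markers to 0.411 to 0.560 and 0.762 to 0.911 TPM. The other marker lists overlapped, and the part of these measures in the result was not tested.

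After repeated 1 mM exposure PER2 was above PBS at 1 h in every library, without passing the test when all libraries were fitted. It was at 11.5, 11.3 and 9.22 TPM in PBS, at 20.6, 22.4 and 19.1 TPM after Chronic 1 h and at 9.49, 9.92 and 9.20 TPM after Chronic 24 h. The log2 fold change at 1 h was 0.92 ± 0.24 (edgeR adjusted p = 0.0650) with all libraries and 0.91 ± 0.13 (edgeR adjusted p = 0.000249) without Acute 24 h replicate 1. It also passed without Acute 24 h replicate 2 (edgeR adjusted p = 0.0269). PER3 was at 16.4, 16.7 and 15.1 TPM in PBS and at 19.9, 24.7 and 20.2 TPM after Chronic 1 h, with no overlap. Its log2 fold change was 0.38 ± 0.13 (edgeR adjusted p = 0.138) and passed without Acute 24 h replicate 1 (0.0276), so that 2 of 10 members were called there, beside 18.4% of genes. Astrocyte markers summed to 193 to 204 TPM after Chronic 1 h and 114 to 150 TPM in PBS, progenitor markers to 1057 to 1146 and 1205 to 1281 TPM, and GABAergic markers to 1267 to 1319 and 1365 to 1567 TPM, and their part in the result was not tested. NR1D1 was at 22.2, 24.4 and 17.1 TPM and DBP at 9.80, 11.7 and 6.995 TPM, both overlapping PBS. Intron reads of PER2 were, unlike at 1 µM, higher in every library: 182, 190 and 178 after Chronic 1 h against 144, 110 and 105 in PBS, without overlap.

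Compared directly at 1 h, Chronic and Acute 1 mM groups did not overlap in 9 of 10 members, all higher after Chronic, beside 36.8% of all genes tested that did not overlap in that direction. PER3 was called (0.52 ± 0.13, edgeR adjusted p = 0.0185), beside 11.3% of genes. PER3 lost the call without Acute 1 h replicate 2 (edgeR adjusted p = 0.0660) or 3 (0.0783) or Chronic 1 h replicate 2 (0.0928). Without Acute 24 h replicate 1, 7 of 10 were called, beside 34.0% of genes: PER2, PER3, CRY2, NR1D1, NR1D2, CIART and TEF, with log2 differences from 0.37 (NR1D2) to 0.85 (NR1D1). Astrocyte markers summed to 193 to 204 TPM after Chronic 1 h and 105.0 to 111 TPM after Acute 1 h, progenitor markers to 1057 to 1146 and 1315 to 1387 TPM and GABAergic markers to 1267 to 1319 and 1401 to 1545 TPM. The intron share was 20.6% to 20.9% after Chronic 1 h and 12.3% to 13.2% after Acute 1 h, and the part of these measures in the result was not tested. From Chronic 1 h to Chronic 24 h PER2 changed by -1.10 ± 0.24 (edgeR adjusted p = 0.0808) and PER3 by -0.51 ± 0.13 (0.147), and both passed without that library (9.28e-05 and 0.0153). This was 0 of 10 beside 0.359% of genes with all libraries (2 at an unadjusted p under 0.05, 2 in DESeq2) and 2 of 10 beside 4.89% without it.

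The doses were then compared, each against its own PBS. After Acute 1 h 1 of 10 members, PER3, was called for a difference between doses. It changed by -0.14 at 1 mM and by 0.81 at 1 µM, a difference of -0.93 ± 0.23 on the log2 scale (edgeR adjusted p = 0.0299), beside 2.01% of 18390 genes. The call was kept without 1 mM Acute 24 h replicate 1 (-0.93, edgeR adjusted p = 0.0136, beside 5.1% of genes) and without the 4 libraries that stood apart (-0.92, edgeR adjusted p = 0.0120, beside 9.45%) and lost in 8 of the 30 fits with 1 library left out, each a library of the 4 groups compared, with adjusted p up to 0.0856. With intron reads counted too PER3 was at -0.26 (edgeR adjusted p = 0.265), and CRY1 was called instead, at 0.75 (0.0417). After Chronic 1 h 0 of 10 passed, beside 0.087% of genes, and 1 of 10 was at an unadjusted p under 0.05. That gene was PER2, with 0.92 at 1 mM and 1.94 at 1 µM (difference -1.04 ± 0.29, edgeR adjusted p = 0.204). It passed without 1 mM Acute 24 h replicate 1 (edgeR adjusted p = 0.0212, beside 0.709% of genes) and without the 4 libraries (-0.87, edgeR adjusted p = 0.0216, beside 3.25%). The experiments at each dose were separate, so dose and experiment cannot be told apart.

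**Figure D3:**
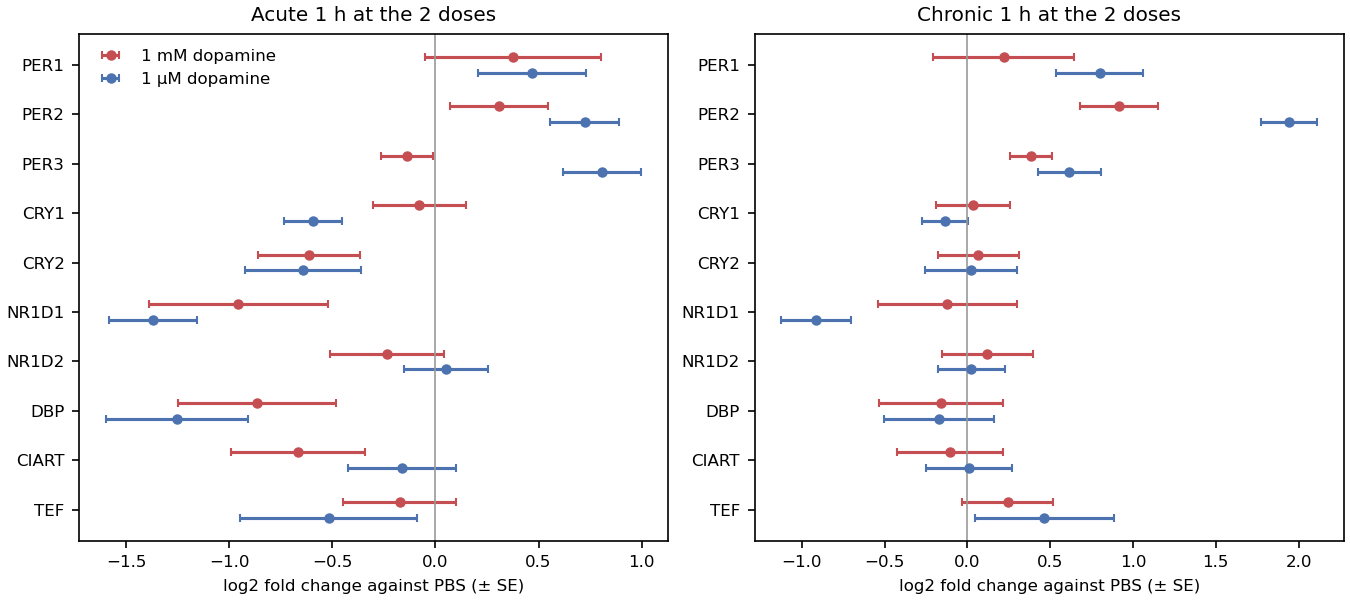
Log2 fold changes against PBS with their SE for the 10 clock genes at 1 mM and 1 µM dopamine, after Acute 1 h (left) and Chronic 1 h (right). PER3 lies on opposite sides of 0 at the 2 doses after Acute 1 h (-0.14 and 0.81), and PER2 is positive at both doses after Chronic 1 h (0.92 and 1.94).

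In the time course PER1 was above AA Ctrl on every day of repeated 1 mM dopamine. It was at 22.3, 23.9 and 20.2 TPM in AA Ctrl, at 30.5, 32.9 and 29.0 TPM at 2 Day and at 25.4, 30.1 and 26.9 TPM at 3 Day. At 4 Day it was at 34.4, 34.4 and 36.5 TPM and at 5 Day, with 2 libraries, at 24.0 and 32.2 TPM. All treated libraries lay above the highest control, the lower 5 Day library only just. The log2 fold changes were 0.61 ± 0.09, 0.41 ± 0.09, 0.69 ± 0.09 and 0.47 ± 0.10 (edgeR adjusted p = 0.0017, 0.0116, 0.00050 and 0.0267). PER1 was the only member called on each day in this fit, 1 of 10 beside 3.88%, 7.37%, 4.38% and 1.63% of 16768 genes. The 2 Day and 4 Day calls held in all 14 fits with 1 library left out. The 3 Day call was lost without 3 Day replicate 2 (edgeR adjusted p = 0.0730) or AA Ctrl replicate 1 (0.0585). The 5 Day call was lost without any of its own libraries (0.0762 and 0.0585) or any AA Ctrl library (0.109, 0.0670 and 0.0991), and in a fit of only 5 Day and AA Ctrl (0.0784). Summed striatal markers were at 115 to 125 TPM in AA Ctrl and lower without overlap on all 4 days (70.1 to 97.7, 99.2 to 110.2, 84.7 to 111 and 86.2 to 91.6 TPM in order), as were progenitor markers (1292 to 1362 TPM in AA Ctrl, 934 to 1265 TPM over the days). Mesenchymal markers (88.0 to 110.2 TPM in AA Ctrl, 129.6 to 288 TPM) and astrocyte markers (151 to 158 TPM in AA Ctrl, 159.5 to 190.0 TPM) were higher without overlap at 3, 4 and 5 Day. The part of these cells in the PER1 result was not tested.

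No other member passed on any of these days. TEF, a D-box activator, was at 14.6, 12.9 and 11.6 TPM in AA Ctrl and at 9.87, 8.64 and 8.46 TPM at 3 Day, with no overlap. Its log2 fold change was -0.43 ± 0.15 (edgeR adjusted p = 0.102, from -0.49 to -0.35 with 1 library left out), and it was called as lower in a fit of only 3 Day and AA Ctrl (-0.45, edgeR adjusted p = 0.0405) and with no filter on low counts (0.0263). PER2 was at 5.71, 6.79 and 7.78 TPM in AA Ctrl and at 7.79, 10.4 and 8.83 TPM at 4 Day, with no overlap and a log2 fold change of 0.44 ± 0.15 (edgeR adjusted p = 0.107). NR1D1 was at 11.9, 12.2 and 8.09 TPM in AA Ctrl and between 8.04 and 13.3 TPM at all days. Between 5 Day and 2 Day 0 of 10 members passed in edgeR, beside 0.0239% of genes (0 members at an unadjusted p under 0.05, 0 in DESeq2). PER1 differed there by -0.15 ± 0.10. The 5 Day group and 1 mM Chronic 1 h of the dose experiment had the same dose, days and hour on their labels. PER2 changed by 0.37 ± 0.17 in the first and by 0.92 ± 0.24 in the second, against different vehicles, and this difference was not tested.

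**Figure D4:**
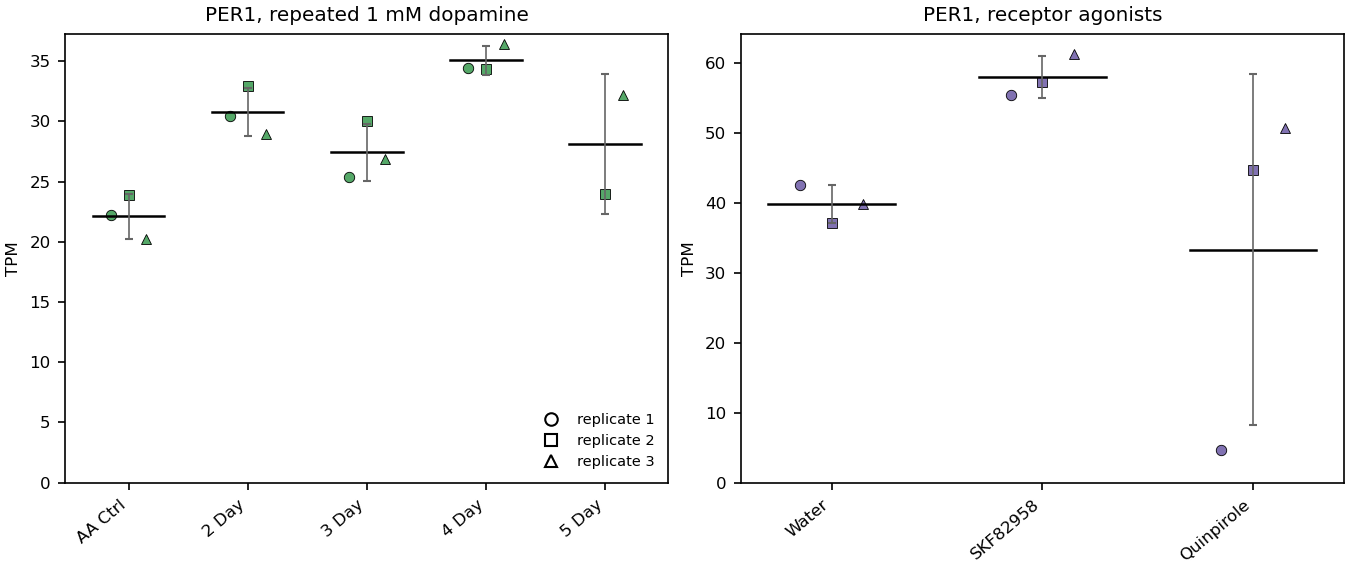
PER1 in TPM by library during repeated 1 mM dopamine (left, AA Ctrl and 2 to 5 Day) and after receptor agonists (right), with each symbol a replicate, the bar the mean and the whiskers the SD. Every treated library on the left lies above the AA Ctrl libraries, and the 3 SKF82958 libraries (55.4 to 61.4 TPM) lie above the Water libraries (37.2 to 42.5 TPM). The quinpirole libraries other than the shallow replicate 1 also lie above Water.

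With the receptor agonists 0 of 10 members passed in any of the 3 comparisons, and 0 were at an unadjusted p under 0.05. DESeq2 called 0 members as well. Over all 16132 genes edgeR called 0.0124% for SKF82958 and 0.0% for quinpirole against Water, with 185 and 350 genes at an unadjusted p under 0.05 and 6 and 110 in DESeq2. PER1 was at 42.5, 37.2 and 39.9 TPM in Water and at 55.4, 57.3 and 61.4 TPM after SKF82958. The groups did not overlap, with a log2 fold change of 0.46 ± 0.54. Without quinpirole replicate 1 the same change was 0.46 ± 0.07 (edgeR adjusted p = 0.00528), beside 0.624% of 16343 genes. Astrocyte markers summed to 203 to 211 TPM after SKF82958 and 175 to 183 TPM in Water, and mesenchymal markers to 120.4 to 168 and 99.6 to 106 TPM, and their part in the result was not tested. After quinpirole PER1 was at 4.6, 44.7 and 50.7 TPM, where the lowest value rests on 1 exon read in the shallow library. The other quinpirole libraries lay above all Water libraries and below all SKF82958 libraries. With the shallow library in the fit, SKF82958 and quinpirole differed for PER1 by 0.53 ± 0.55. The log2 fold change of PER1 for quinpirole against Water ran from -0.46 to 0.31 with 1 library left out at a time. Without the shallow library no member was called for quinpirole against Water (beside 0.184% of genes) or between the agonists (0.0%) either. FOS was already at 204 to 280 TPM in Water, against 6.19 to 19.1 TPM in the other controls.

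Outside the 10 members, 19 further clock genes were counted: the activators, ROR receptors, BHLHE repressors, output factors, and the kinases and ubiquitin ligase subunits that control PER and CRY stability. At 1 µM Acute 1 h 1 of 18 tested passed, beside 5.77% of all genes. It was BTRC, a substrate receptor that targets PER proteins for degradation (log2 fold change 0.66, edgeR adjusted p = 0.0165). At 1 µM Acute 24 h 3 of 18 passed, beside 3.31%. BHLHE40 (DEC1), a repressor that competes for E-boxes, was lower by -1.44, and BTRC (0.84) and TIMELESS (0.54) were higher. At 1 µM Chronic 1 h 0 of 18 passed in edgeR, beside 2.58%, with 3 at an unadjusted p under 0.05. At 1 mM 2 of 19 passed after Acute 1 h, beside 16.0% of all genes, both lower: NPAS2, a relative of CLOCK (-0.39), and RORB, an activator of ARNTL (-0.96). After 1 mM Acute 24 h BHLHE40 (-1.20) and BTRC (0.49) passed, 2 of 19 beside 15.5%. In the time course BHLHE40 passed on every day, 1 of 18 genes each beside 3.88%, 7.37%, 4.38% and 1.63%, with log2 fold changes from 1.06 to 1.35. CLOCK and ARNTL were called in none of the 24 comparisons. The median log2 fold change of the list lay between -0.21 and 0.16 in the comparisons with a control, beside -0.05 to 0.02 over all genes tested.

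Across all 53 libraries, with levels as log2(TPM + 1) centered on the mean of each experiment, the members did not vary as 1 group. Pearson's r, given only as a description and without a test, ran from -0.46 (PER3 with CIART) to 0.88 (CRY2 with DBP). With quinpirole replicate 1 and 1 mM Acute 24 h replicate 1 left out, PER3 with CIART was at 0.19, CRY2 and DBP had r = 0.89, TEF and CRY2 0.83, and DBP and NR1D1 0.73. PER3 with NR1D1 was at -0.33 and PER1 with PER2 at 0.68. Of 15130 genes ranked, those most like PER1 included TRIB3 (r = 0.91), HBEGF (0.89), TRAF4 (0.88) and MAP3K14 (0.88). Without those 2 libraries none of these 4 remained among the nearest 5, and SLC25A25 (0.88) and NR4A1 (0.83) came first. The genes most like DBP were ALKBH5 (0.92), SGSM1 (0.91), DICER1-AS1 (0.905), ARID3A (0.90) and DDB2 (0.90), and none of these 5 remained, with THRA (0.91) first.

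**Figure D5:**
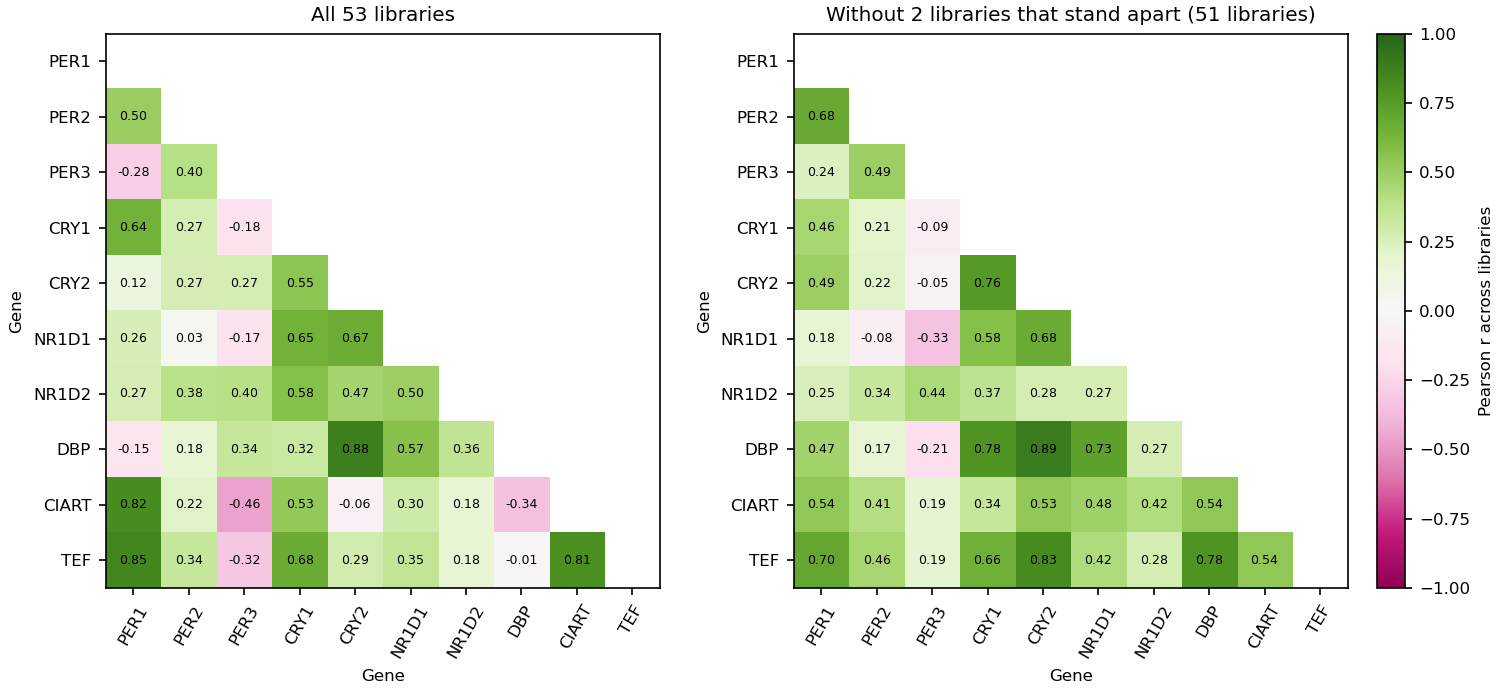
Pearson's r between the 10 clock genes across libraries, from log2(TPM + 1) centered on each experiment's mean, for all 53 libraries (left) and without quinpirole replicate 1 and 1 mM Acute 24 h replicate 1 (right). CRY2 and DBP have the highest r in both (0.88 and 0.89), while the r of PER1 with DBP goes from -0.15 to 0.47.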

How the data were processed

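RNA-seq of hMSN-like cells was analysed from per-library tables. The authors mapped reads in CLC Genomics Workbench to hg38, and the deposited counts are whole reads per gene, as total exon reads and, with introns, total gene reads. The deposited TPM values were computed by the authors from exon reads and the exon length listed for each gene. The strand setting and the sequencing provider of each library are not given in the sources used here. A 5 Day sample (replicate 1) and CGS21680 were not analysed here.

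Exon read counts were tested with edgeR 4.0.16 (R 4.3.3), with TMM normalization, filterByExpr (minimum count 10, total 15), glmQLFit and glmQLFTest. Each experiment was fitted with all of its groups, and the dose differences with both dose experiments. P-values were adjusted by Benjamini-Hochberg over all genes tested, and a gene was called under an adjusted p of 0.05. The SE was derived from the test, as the size of the log2 change over the square root of F. Groups and replicate numbers came from the sample labels. Alternatives were DESeq2 1.42.0 (Wald test), its size factors, no filter, total gene reads, only the groups compared, the replicate number as a block, and each library left out.

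Whether replicate numbers pair libraries was checked by the correlation of deviations from group means. In 1 µM PBS, Acute 1 h and Chronic 1 h all 9 pairs correlated, from 0.27 to 0.70, and the block was also fitted to these groups alone. No stated design pairs them. Deviations within a group sum to 0, so a second replicate that stands apart in each group also makes the other replicates correlate. These values therefore cannot show whether the other replicates pair.

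The members and the list of 19 other clock genes were chosen with earlier results of these data known. All 10 members are named, with the 19 others where called, and the 5 genes most like PER1 and DBP by Pearson's r of log2(TPM + 1) among genes over a minimum mean TPM. A gene among those most like PER1 is not reported here. Promoters came from RefSeq (GRCh38.p14) and exon starts from GENCODE 44. The fitting scripts were tested on simulated data.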

Additional observations from a re-analysis of the deposited data

Results flagged for a closer look

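Contrasts whose difference was itself tested are listed by value. PER3 was higher after 1 mM Chronic 1 h than after 1 mM Acute 1 h by 0.52 on the log2 scale (3 of 3 libraries above all of the other group). PER2 was higher after 1 µM Chronic 1 h than after 1 µM Acute 1 h by 1.22, also without overlap. From 1 µM Chronic 1 h to Chronic 24 h the log2 change was -1.72 for PER2 and -0.99 for PER3. The response of PER3 to Acute 1 h differed between 1 mM and 1 µM by -0.93.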

How the results depend on the processing

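Of 18 called results under 410 alternatives in all, 331 kept their direction and call, 79 lost the call and 0 turned. Of 222 results not called under 4820 alternatives, 83 gained a call and 3 called values turned: without 1 mM Acute 24 h replicate 1, PER1 (-0.67), CRY2 (-0.46) and NR1D1 (-0.87) at 1 mM Acute 24 h, whose highest values with another library left out were 0.70, 0.22 and 0.37. The causes were not tested.

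Numbers of clock genes called moved as follows, each given with the genes called of all genes tested in that fit. With only the groups compared they were at 1 mM 6 (Acute 1 h, 7592 of 16694), 3 (Chronic 1 h, 4340 of 17064), 8 (Chronic against Acute 1 h, 7388 of 16803) and 1 (Chronic 24 h against 1 h, 314 of 17079). At 1 µM they were 0 (Acute 1 h, 52 of 15352), 1 (Acute 24 h, 329 of 15414), 1 (Chronic 1 h, 34 of 15363) and 0 (Chronic against Acute 1 h, 0 of 15156). Elsewhere they were 2 (3 Day, 1467 of 15910), 0 (5 Day, 61 of 16360), 1 (SKF82958, 149 of 15868) and 1 (dose difference of Chronic 1 h, 45 of 17435). With DESeq2 they were 1 (1 mM Chronic 1 h, 1053 of 17804) and 2 (1 mM Chronic 24 h against 1 h, 236 of 17804). At 1 µM DESeq2 gave 2 (Chronic against Acute 1 h, 714 of 16541) and 2 (Acute 24 h against 1 h, 430 of 16541). With no filter they were at 1 mM 1 (Chronic 1 h, 280 of 33086) and 1 (Chronic 24 h against 1 h, 72 of 33086). At 1 µM they were 3 (Acute 1 h, 686 of 28590), 1 (Acute 24 h, 340 of 28590) and 1 (Chronic 1 h, 290 of 28590). Also with no filter they were 2 (3 Day, 1920 of 30252) and 0 (dose difference of Acute 1 h, 292 of 33673). With total gene reads they were 2 (1 µM Acute 1 h, 1314 of 22537) and 1 (1 µM Chronic 1 h, 806 of 22537). That setting also gave 1 (1 µM Chronic 24 h against 1 h, 364 of 22537) and 0 (5 Day, 221 of 21690).

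The replicate block in the fit of all 1 µM groups left 1 member at Chronic 1 h (PER2) and moved no other number of clock genes past 1.5 times. Outside 1 µM PBS, Acute 1 h and Chronic 1 h, same-numbered libraries were taken to share only a number. Their correlations ran from -0.18 to 0.29 at 1 mM, -0.55 to 0.39 at 1 µM, -0.33 to 0.31 in the time course and -0.14 to 0.13 for the agonists. The following were chosen after seeing the data. The block in the fit of 1 µM PBS, Acute 1 h and Chronic 1 h gave 4 for Chronic against Acute 1 h. Without the 3 second replicates the numbers were 6 (Acute 24 h), 3 (Chronic against Acute 1 h), 2 (Acute 24 h against 1 h) and 4 (Chronic 24 h against 1 h). Without the 4 libraries that stood apart the dose difference of Chronic 1 h gave 1. Of the 5 genes nearest to PER1, 3 remained with a pseudocount of 0.1 (planned) and 0 without quinpirole replicate 1 and 1 mM Acute 24 h replicate 1, where 0 of the 5 nearest to DBP remained.

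With 1 library left out at a time, the numbers ran at 1 mM from 0 to 5 (Acute 1 h), 0 to 4 (Acute 24 h), 0 to 2 (Chronic 1 h), 0 to 7 (Chronic against Acute 1 h), 0 to 3 (Acute 24 h against 1 h) and 0 to 2 (Chronic 24 h against 1 h). At 1 µM they ran from 2 to 5, 1 to 3, 1 to 3, 1 to 1, 0 to 1 and 1 to 3 in the same order. They ran from 0 to 1 for 3 Day, 5 Day, SKF82958 and both dose differences, and did not move for the others.

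Numbers of all genes called under these alternatives, apart from the fits that left out 1 library at a time, ran from 2181 to 12271 (1 mM Acute 1 h, 2845 as reported), 0 to 11388 (1 mM Acute 24 h, 2755), 258 to 4340 (1 mM Chronic 1 h, 371), 42 to 428 (1 mM Chronic 24 h, 118), 1490 to 10437 (1 mM Chronic against Acute 1 h, 2008), 52 to 1892 (1 µM Acute 1 h, 954), 329 to 1914 (1 µM Acute 24 h, 547), 34 to 1209 (1 µM Chronic 1 h, 427) and 0 to 714 (1 µM Chronic against Acute 1 h, 199). They ran from 427 to 1420 (2 Day, 651), 1074 to 1920 (3 Day, 1236), 463 to 2145 (4 Day, 734), 61 to 896 (5 Day, 274), 0 to 149 (SKF82958, 2), 0 to 110 (quinpirole, 0), 159 to 7299 (dose difference of Acute 1 h, 369) and 13 to 615 (of Chronic 1 h, 16). From 1 h to 24 h they ran from 4 to 2276 (1 mM Acute, 621), 49 to 314 (1 mM Chronic, 64), 25 to 818 (1 µM Acute, 98) and 254 to 1285 (1 µM Chronic, 322), and otherwise from 1 to 179 (5 Day against 2 Day, 4), 0 to 53 (SKF82958 against quinpirole, 0) and 0 to 1 (1 µM Chronic 24 h, 0). With 1 library left out at a time they ran from 1229 to 7236 (1 mM Acute 1 h), 491 to 4690 (Acute 24 h), 58 to 3336 (Chronic 1 h), 1 to 1542 (Chronic 24 h), 818 to 6183 (Chronic against Acute 1 h), 79 to 3423 (Acute 24 h against 1 h) and 18 to 889 (Chronic 24 h against 1 h). At 1 µM they ran from 530 to 1108, 141 to 1004, 147 to 767, 0 to 0, 47 to 271, 37 to 149 and 97 to 612 in the same order. They ran from 122 to 1033 (2 Day), 370 to 1713 (3 Day), 215 to 1191 (4 Day), 64 to 779 (5 Day), 2 to 379 (5 Day against 2 Day), 0 to 30 (quinpirole), 138 to 965 (dose difference of Acute 1 h) and 7 to 134 (of Chronic 1 h), and for SKF82958 from 0 to the 0.624% of 16343 genes given for the fit without quinpirole replicate 1. Quinpirole replicate 1 held 137051 exon reads, which limits values of low genes there to a few reads.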
